A study of Mus musculus with 7 samples.

Results

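Endothelial cells line every vessel of the heart, and 10 genes that mark them were followed here through RNA sequencing of mouse left ventricle. The genes are Pecam1, Cdh5, Kdr, Flt1, Tek, Tie1, Emcn, Eng, Vwf and Fabp4, chosen by name as markers of this cell type and found by Ensembl identifier among the 22027 genes of the deposited tables. The choice was made with earlier results of these data known, so the genes are described as a set and not tested as one. All 10 were listed and all 10 passed the filter on low counts, as did 12674 genes in all. The libraries labelled G3 PGC1aOE came from telomerase-deficient mice of the same kind as G3, with PGC1alpha (the transcriptional coactivator encoded by Ppargc1a) overexpressed (n = 3). The libraries labelled G3 came from telomerase-deficient mice alone (n = 4). The strain is C57BL/6J and the mice were 12 months old in all 7 cases, so both groups share the telomerase deficiency and no library with intact telomerase was analysed here. The sources used here do not give the promoter that drives PGC1alpha, nor whether each library is a separate animal, and p-values therefore measure only the spread between these samples.

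The ventricular wall is fed by a dense capillary bed, and endothelial cells are numerous there although cardiomyocytes supply most of the RNA. These cells sense VEGF through receptor tyrosine kinases, which drive survival and sprouting, and sense angiopoietins through the TEK receptor, which keeps mature vessels quiet. Endoglin, a co-receptor for BMP and TGF-beta ligands, adds a further signal, and VE-cadherin and PECAM1 hold neighbouring cells together at their junctions. In a bulk tissue library, fewer cells of a type and less RNA per cell cannot be told apart.

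Total counts ran from 11576569 to 16056740 in G3 PGC1aOE and from 10106705 to 14119403 in G3. The message of the overexpressed gene did not separate the groups: Ppargc1a measured 103, 43.9 and 58.1 CPM (read counts scaled to a common library size by TMM) in G3 PGC1aOE 1 to 3, against 94.7, 56.8, 118 and 86.7 CPM in G3 1 to 4. The edgeR estimate on the log2 scale was −0.38 ± 0.34 (SE, adjusted p = 0.847), so directions below rest on the libraries' labels. The sample descriptions also hold a code whose meaning is not stated. The code number is 55, 81 and 82 in G3 PGC1aOE 1 to 3 and 40, 67, 50 and 83 in G3 1 to 4.

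Promoter sequence was at hand for 6 of the 10 genes, and 4 of these are shown: Eng and Tie1, which were both highest in G3 PGC1aOE 2, and Kdr and Flt1, the VEGF receptors, which were highest in G3 3 and G3 2. Each runs from 250 bases before to 50 bases after the annotated start, 5′ to 3′ along the gene, taken from RefSeq on GRCm38.p6, a later build than the mm9 named for the deposited tables. Capitals mark GGAA and its reverse complement TTCC, the core bound by ETS transcription factors, the family of ERG and FLI1 that acts in endothelium. The windows are chr2:32646345-32646644 (plus strand) for Eng, chr4:118489800-118490099 (minus strand) for Tie1, chr5:75978406-75978705 (minus strand) for Kdr and chr5:147725962-147726261 (minus strand) for Flt1.
Eng: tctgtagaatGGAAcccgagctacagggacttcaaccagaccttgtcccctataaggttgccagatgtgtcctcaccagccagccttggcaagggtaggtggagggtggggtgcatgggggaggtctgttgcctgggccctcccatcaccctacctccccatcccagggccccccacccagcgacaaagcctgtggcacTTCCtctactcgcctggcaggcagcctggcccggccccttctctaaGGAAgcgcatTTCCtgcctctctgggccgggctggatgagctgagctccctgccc
Tie1: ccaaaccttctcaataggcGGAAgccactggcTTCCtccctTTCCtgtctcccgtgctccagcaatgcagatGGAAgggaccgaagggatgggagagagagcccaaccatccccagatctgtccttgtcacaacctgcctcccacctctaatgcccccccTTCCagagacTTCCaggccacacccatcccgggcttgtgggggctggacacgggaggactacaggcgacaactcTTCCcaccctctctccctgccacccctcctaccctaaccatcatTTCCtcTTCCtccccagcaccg
Kdr: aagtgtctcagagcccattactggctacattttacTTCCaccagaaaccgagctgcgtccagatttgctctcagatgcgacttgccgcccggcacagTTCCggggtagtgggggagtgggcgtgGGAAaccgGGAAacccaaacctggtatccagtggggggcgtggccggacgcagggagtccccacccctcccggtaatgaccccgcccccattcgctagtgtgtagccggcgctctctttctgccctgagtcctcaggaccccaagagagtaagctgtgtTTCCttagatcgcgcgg
Flt1: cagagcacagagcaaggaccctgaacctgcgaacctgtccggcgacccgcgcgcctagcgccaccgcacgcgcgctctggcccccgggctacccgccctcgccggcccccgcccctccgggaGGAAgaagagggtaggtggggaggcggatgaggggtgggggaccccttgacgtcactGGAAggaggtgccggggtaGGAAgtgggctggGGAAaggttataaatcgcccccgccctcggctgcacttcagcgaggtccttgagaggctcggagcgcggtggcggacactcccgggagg
On both strands together, GGAA occurred 4 times in the window of Eng, 9 times in Tie1, 5 times in Kdr and 4 times in Flt1, with 6 in Emcn and 2 in Tek. The core is common: 96.0% of 32851 windows of the same length held it, with a median of 3 matches and 6 at the 90th percentile. The longer form CCGGAA, which contains GGAA, was found in Kdr only among the 6 windows, against 14.9% of all windows. The GATA box AGATAA was found in Tek only, against 11.2% of all windows. These matches describe letters and not bound sites.

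The 10 genes were all well covered, from 273 counts for Emcn in G3 3 to 17521 counts for Fabp4 in G3 PGC1aOE 2. Per length, Fabp4, a fatty acid carrier of capillary endothelium that adipocytes and macrophages also use, stood at the top, with 305 ± 140 FPKM in G3 PGC1aOE (SD, n = 3) and 212 ± 32.1 FPKM in G3 (SD, n = 4). Eng followed at 130 ± 60.9 FPKM in G3 PGC1aOE and 90.2 ± 14.7 FPKM in G3. Each of these was above the next gene in the order in all 7 libraries. Pecam1, Vwf and Flt1 came next, with means over the 7 libraries of 59.0, 47.9 and 47.6 FPKM, and their order was not kept between libraries: Pecam1 was above Vwf in 5 of 7 and Vwf above Flt1 in 4 of 7. Flt1 was above Cdh5 in all 7 libraries. Cdh5, Kdr, Tie1 and Emcn had means of 32.0, 26.8, 20.5 and 18.9 FPKM, and no neighbours among them kept their order in every library. Tek was lowest at 12.2 FPKM, below Emcn in 6 of 7 libraries.

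This order depends on the gene lengths behind the deposited FPKM. For 9 of the 10 genes the length implied by the 2 tables equalled, within 1 bp, the mean length of all transcripts listed for the gene in GENCODE vM21, and the same held for 65.0% of 17627 genes. For Vwf that length was 2663 bp, while its longest protein-coding transcript has 8834 bp. For Fabp4 it was 2564 bp, against 896 bp. Divided by the longest protein-coding transcript instead, Vwf dropped to the ninth place with a mean of 14.2 CPM per kb, between Emcn at 15.2 and Tek at 9.10 CPM per kb, and Cdh5 moved up to the fourth at 32.3 CPM per kb. Fabp4, Eng and Pecam1 kept the top 3 places at 741, 61.9 and 42.4 CPM per kb. Comparisons of one gene between libraries are not touched by this choice.

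Between the groups, no endothelial gene passed the test. Of the 10 genes, 8 had a positive log2 fold change, G3 PGC1aOE over G3, where 50.9% of tested genes did, and the median was 0.27 where that of all tested genes was 0.0076. Without G3 PGC1aOE 2 the count of positive genes was 6 and the median 0.16. With each library left out in turn, the count ran from 6 to 9. edgeR called 0 of the 10 at an adjusted p of 0.05, and 0% of the 12674 tested genes. At an unadjusted p of 0.05 it passed 1 of the 10, Emcn, which was higher, and 548 of all genes, or 4.32%, with 3.05% higher in G3 PGC1aOE. DESeq2 called none of the 10 and 0.00566% of the genes it tested. The groups overlapped for all 10 genes, where 4.58% of tested genes did not overlap (2.19% higher and 2.39% lower in G3 PGC1aOE). Summed over the 10 genes, the level was 1325, 2719 and 1915 CPM in G3 PGC1aOE 1 to 3, against 1322, 1519, 1407 and 1654 CPM in G3 1 to 4. G3 PGC1aOE 2 and 3 were thus above every G3 library, while G3 PGC1aOE 1 lay next to the lowest of them.

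**Figure D1:**
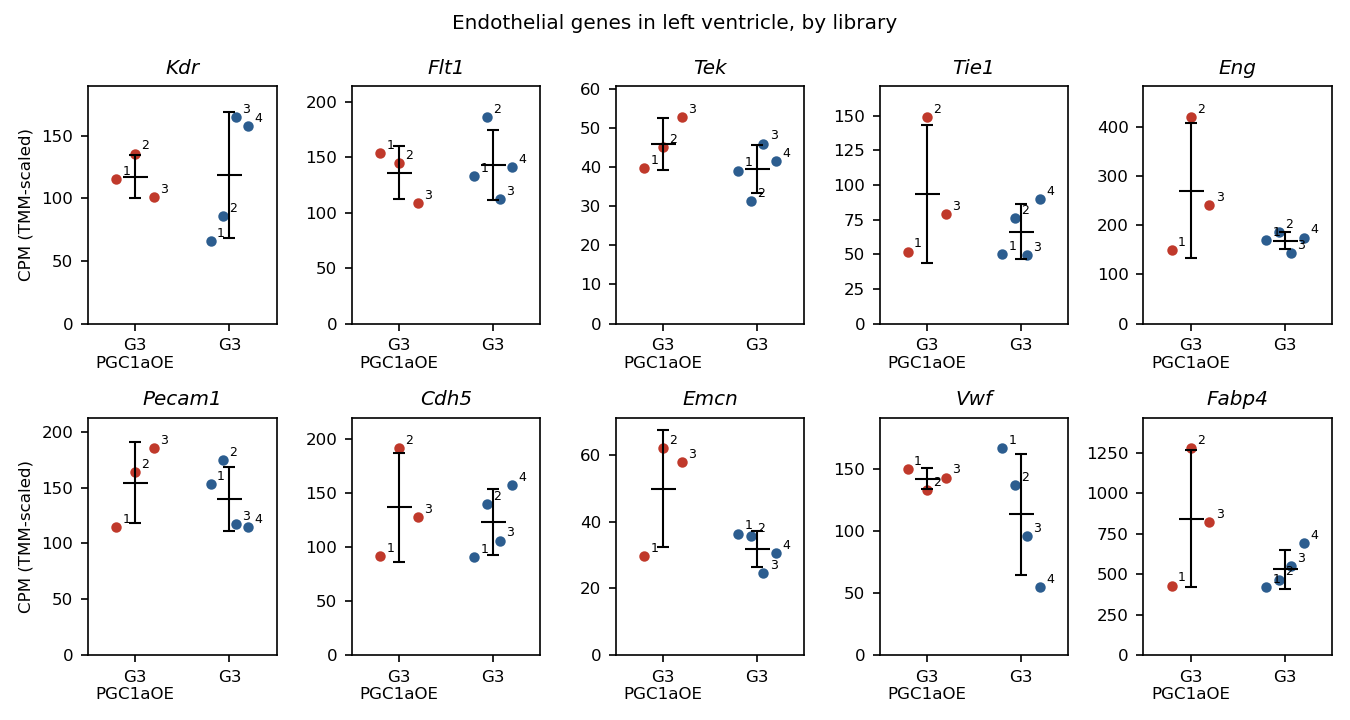
CPM (scaled by TMM) of each of the 10 endothelial genes, with G3 PGC1aOE in red at the left and G3 in blue at the right of each panel. Points are libraries numbered by replicate, and bars are the mean and SD (n = 3 and n = 4). G3 PGC1aOE 2 is the top point for Tie1, Eng, Cdh5, Emcn and Fabp4, and the groups overlap in every panel.

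Among the VEGF receptors, Kdr (VEGFR2, the main signalling receptor) measured 115, 136 and 101 CPM in G3 PGC1aOE 1 to 3, against 66.1, 85.8, 165 and 157 CPM in G3 1 to 4. All 3 G3 PGC1aOE values lay inside the range of G3, which was 2.49-fold wide. In edgeR the fitted value was −0.015 ± 0.33 on the log2 scale (SE, 95% interval −0.75 to 0.72, adjusted p = 0.993). Flt1 (VEGFR1, which binds VEGF tightly and limits its supply to KDR) measured 154, 145 and 109 CPM in G3 PGC1aOE, against 133, 186, 112 and 141 CPM in G3. G3 2 was the highest and G3 PGC1aOE 3 the lowest of the 7. Fitted by edgeR, the log2 fold change came to −0.074 ± 0.25 (SE, 95% interval −0.63 to 0.48, adjusted p = 0.953). Per library the ratio of Kdr to Flt1 in CPM was 0.749, 0.937 and 0.927 in G3 PGC1aOE 1 to 3, against 0.498, 0.460, 1.47 and 1.12 in G3 1 to 4. The G3 values spanned all 3 of G3 PGC1aOE.

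The TIE receptors differed from each other in how they varied. Tek (TIE2, the angiopoietin receptor) was the steadiest of the 10, with a coefficient of variation of 15.9% over the 7 libraries, and measured 39.9, 45.1 and 52.9 CPM in G3 PGC1aOE, against 39.2, 31.3, 46.1 and 41.7 CPM in G3. edgeR put the log2 fold change at 0.22 ± 0.21 (SE, 95% interval −0.25 to 0.68, adjusted p = 0.850). Tie1, a partner that binds TEK and modulates its signal, measured 51.9, 149 and 79.1 CPM in G3 PGC1aOE, against 50.1, 76.0, 49.6 and 89.6 CPM in G3. G3 PGC1aOE 2 was far above the others, and G3 PGC1aOE 1 was level with the lowest of G3. In edgeR the fitted value was 0.49 ± 0.36 on the log2 scale (SE, 95% interval −0.30 to 1.29, adjusted p = 0.847), and it was −0.017 without G3 PGC1aOE 2. The coefficient of variation of Tie1 was 45.2%, above that of 85.5% of tested genes.

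Eng (endoglin) had the highest fitted fold change of the 10. It measured 149, 419 and 240 CPM in G3 PGC1aOE 1 to 3, against 169, 186, 144 and 174 CPM in G3 1 to 4. In CPM, G3 PGC1aOE 2 and 3 were above every G3 library, and G3 PGC1aOE 1 was below 3 of the 4. In the deposited FPKM, G3 PGC1aOE 3 at 105 lay below G3 2 at 108. Fitted by edgeR, the log2 fold change came to 0.68 ± 0.33 (SE, 95% interval −0.048 to 1.40, unadjusted p = 0.0644, adjusted p = 0.847). It was 0.21 without G3 PGC1aOE 2. The receptor that endoglin assists, Acvrl1 (ALK1), measured 39.1 ± 12.9 CPM in G3 PGC1aOE (SD, n = 3) and 26.6 ± 2.54 CPM in G3 (SD, n = 4), for a log2 fold change of 0.55 (SE 0.24). Id1, a target gene of BMP signalling, measured 33.9, 123 and 67.9 CPM in G3 PGC1aOE, against 22.3, 43.3, 26.1 and 53.5 CPM in G3, with a log2 fold change of 1.05 and an SE of 0.43. In the list of 15 BMP and TGF-beta genes that holds these, 11 had a positive and 4 a negative log2 fold change, the median was 0.20 and 0 passed (edgeR; adjusted p = 0.847 for both named genes).

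Of the junction and surface genes, Pecam1 (PECAM1, an adhesion molecule of cell contacts) measured 115, 164 and 185 CPM in G3 PGC1aOE, against 153, 174, 117 and 115 CPM in G3. In CPM the highest and the lowest of the 7 were both G3 PGC1aOE libraries. In the deposited FPKM the highest was G3 2 at 79.4 and the lowest G3 4 at 43.7. edgeR gave a log2 fold change of 0.14 ± 0.26 (SE, adjusted p = 0.913), and −0.0084 without G3 PGC1aOE 3. Cdh5 (VE-cadherin, the cadherin of endothelial junctions) measured 91.1, 191 and 127 CPM in G3 PGC1aOE, against 90.5, 139, 106 and 157 CPM in G3. The edgeR estimate on the log2 scale was 0.15 ± 0.30 (SE, adjusted p = 0.923), and −0.17 without G3 PGC1aOE 2, the highest of the 7. Emcn (endomucin, a sialomucin of capillary and venous endothelium) measured 29.7, 61.9 and 57.7 CPM in G3 PGC1aOE, against 36.4, 35.5, 24.5 and 30.4 CPM in G3. G3 PGC1aOE 2 and 3 stood well above all G3 libraries and G3 PGC1aOE 1 within them. edgeR put the log2 fold change at 0.65 ± 0.27 (SE, 95% interval 0.043 to 1.26, unadjusted p = 0.0381, adjusted p = 0.847), and it lay between 0.46 and 0.91 when each library was left out in turn. With the code number as a covariate it was 0.40.

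Vwf (von Willebrand factor, the clotting protein that endothelium stores and releases) measured 150, 133 and 143 CPM in G3 PGC1aOE, against 167, 137, 95.9 and 54.7 CPM in G3. In CPM the 3 G3 PGC1aOE libraries lay close together, with an SD of 8.49 CPM where that of G3 was 48.8 CPM. In the deposited FPKM they were less close, at 62.7, 46.1 and 45.4, with an SD of 9.76 FPKM where that of G3 was 21.9 FPKM. edgeR gave a log2 fold change of 0.32 ± 0.34 (SE, adjusted p = 0.853), and 0.095 without G3 4, the lowest library. Platelets also carry Vwf: the 8 platelet markers summed to 33.9 to 42.3 CPM in G3 PGC1aOE and 15.2 to 34.0 CPM in G3, with G3 4 again lowest. Pf4 held the most, with 14.7, 30.9 and 28.9 CPM in G3 PGC1aOE, against 14.8, 13.7, 10.6 and 11.3 CPM in G3. The mean log2 CPM of the list was 2.90, 1.85 and 1.27 in G3 PGC1aOE, against 2.17, 1.70, 2.13 and 0.781 in G3. The part of platelets in the Vwf values was not tested. Fabp4 measured 429, 1276 and 820 CPM in G3 PGC1aOE, against 418, 466, 547 and 693 CPM in G3. G3 PGC1aOE 2 and 3 were above all G3 libraries and G3 PGC1aOE 1 near the lowest. In edgeR the fitted value was 0.66 ± 0.37 on the log2 scale (SE, 95% interval −0.14 to 1.47, adjusted p = 0.847), and it was 0.23 without G3 PGC1aOE 2. Adipocytes also use Fabp4, and the 10 adipocyte markers summed to 49.5, 88.2 and 88.2 CPM in G3 PGC1aOE 1 to 3, against 41.1, 84.0, 41.2 and 45.6 CPM in G3 1 to 4. Their sum was thus also highest in G3 PGC1aOE 2 and 3, followed closely by G3 2. Lipe, which encodes hormone-sensitive lipase, held the most, with 39.7, 56.6 and 28.6 CPM in G3 PGC1aOE, against 38.2, 47.6, 39.2 and 44.0 CPM in G3. Car3, a carbonic anhydrase gene, measured 2.87, 9.97 and 23.3 CPM in G3 PGC1aOE, against 0.274, 4.73, 0.807 and 0.601 CPM in G3 (log2 fold change 2.87, SE 0.97). Pck1, a gene of glyceroneogenesis, had 2.55 (SE 0.87), and Adipoq (adiponectin) measured 0.932, 2.18 and 4.05 CPM in G3 PGC1aOE, against 0.365, 3.03, 0.359 and 0.0752 CPM in G3. Ucp1, the marker of brown fat, was at 0 in all 7. No gene of the list passed in edgeR, and the part of these cells in the Fabp4 values was not tested.

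**Figure D2:**
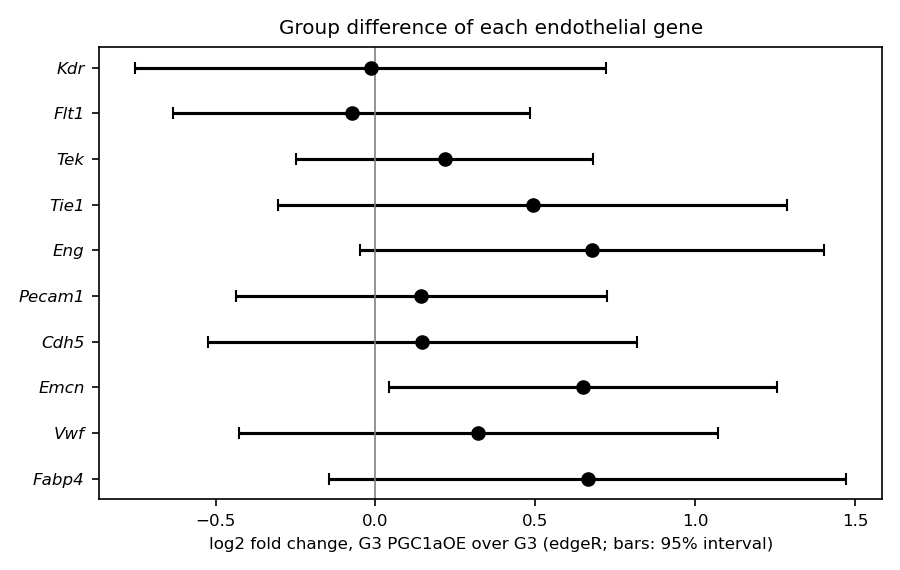
Log2 fold change of each endothelial gene, G3 PGC1aOE over G3, as fitted by edgeR, with bars for the 95% interval. The points run from −0.074 for Flt1 to 0.68 for Eng, and the interval of Emcn alone lies above 0, with none passing after adjustment.

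The 10 genes did not vary as a block. G3 PGC1aOE 2 was the highest library for 5 of them (Cdh5, Tie1, Emcn, Eng and Fabp4), where 26.2% of all tested genes were highest in that library, and all 10 were above their own mean there. Tie1, Eng and Fabp4 stood 1.04, 1.08 and 1.05 above their mean log2 CPM in that library. For Flt1, Tek, Vwf, Pecam1 and Kdr the same deviation was only 0.071, 0.11, 0.16, 0.19 and 0.27. G3 PGC1aOE 3 was highest for Pecam1 and Tek, G3 1 for Vwf, G3 2 for Flt1 and G3 3 for Kdr. In the deposited FPKM the highest library was G3 2 for Pecam1 and G3 3 for Tek. By the rule for likeness, the genes outside the 10 whose log2 CPM followed the mean of the 10 most closely over the 7 libraries were Myl12b, Serf2, Psenen, Bola2 and Cavin3, with Pearson coefficients from 0.986 to 0.992. They were picked for that value among 10125 genes, of which 545 exceeded 0.9. Their values were taken without removing the trend on transcript length described next, and its part in this choice was not tested.

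Transcript length moved with the same libraries. Length here was that of the longest protein-coding transcript, or of the longest transcript where a gene had no protein-coding one. In G3 PGC1aOE 1 to 3 the median deviation from the gene's mean log2 CPM was −0.22, 0.37 and 0.23 among the 3165 tested genes with the shortest coding transcripts (up to 2046 bp), against −0.17, −0.015, −0.18 and 0.025 in G3 1 to 4. Among the 3163 with the longest (4748 bp and more) it was 0.21, −0.30 and −0.18 in G3 PGC1aOE, against 0.10, 0.044, 0.16 and 0.011 in G3. The endothelial genes of longest transcript are Vwf, Flt1 and Kdr, at 8834, 6895 and 5924 bp, and that of shortest is Fabp4, at 896 bp. With each library's trend on coding transcript length removed, all 10 genes had a positive log2 fold change, with a median of 0.27. Vwf then had 0.56, Kdr 0.15, Flt1 0.097 and Fabp4 0.22, while Eng had 0.72, Emcn 0.61 and Tie1 0.59. None passed (edgeR, lowest adjusted p = 0.916). The mean of the 10 genes was then 6.59, 7.47 and 7.10 log2 CPM in G3 PGC1aOE 1 to 3, against 6.62, 6.82, 6.59 and 6.80 in G3 1 to 4, and G3 PGC1aOE 2 was the highest library for 7 of the 10. The share of 26.2% of all tested genes given above holds for values with the trend left in. No such share is given with the trend removed, so the 7 of the 10 cannot be set against one. Without that step the means were 6.66, 7.40 and 7.06 in G3 PGC1aOE and 6.65, 6.84, 6.64 and 6.81 in G3. Single genes went opposite ways: in G3 PGC1aOE 2 the deviation of Fabp4 was 0.48 with the trend removed and 1.05 without that step, while that of Vwf was 0.55 and 0.16. For Fabp4 the log2 fold change depended on which length was used. It was 0.22 with the trend on coding transcript length removed and 0.66 with no trend removed. With the trend on the length behind the deposited FPKM removed instead, Fabp4 had 0.75 and Vwf 0.39.

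**Figure D3:**
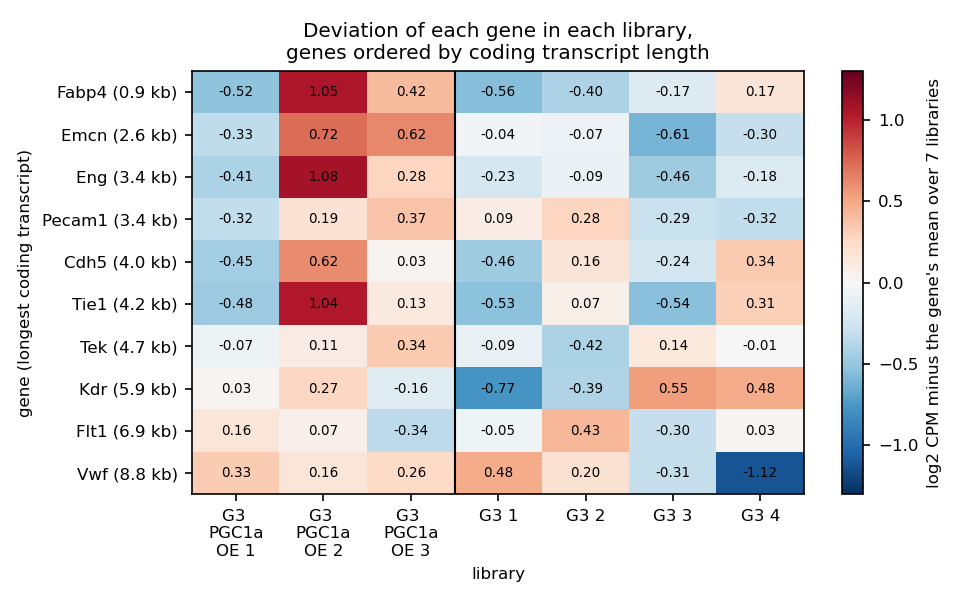
Deviation of each endothelial gene from its mean log2 CPM over the 7 libraries, with genes ordered down the page from the shortest to the longest coding transcript and G3 PGC1aOE left of the line. The column of G3 PGC1aOE 2 is deepest red for Eng, Fabp4 and Tie1 (1.08, 1.05 and 1.04), and the lowest cell is Vwf in G3 4 at −1.12.

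The difference was not even across the sample codes. The mean log2 CPM of the 10 genes differed by 0.30 over all libraries, G3 PGC1aOE minus G3. Among code numbers below 80, with 1 library of G3 PGC1aOE and 3 of G3, it was −0.052. At 80 and above, with 2 and 1, it was 0.42. Eng differed by −0.15 and 0.86 within these bands and Emcn by −0.093 and 0.97. Among codes that hold G2 (1 and 2 libraries) the mean differed by 0.014, and among those that hold G3 (2 and 2) by 0.40. G3 PGC1aOE 1 is the only library of its group in the first band of either split, so the code and that library cannot be told apart. In edgeR with the code number as a covariate, Tie1 had 0.074, Fabp4 0.20, Eng 0.35, Emcn 0.40 and Vwf 0.72, and none passed. Without G3 PGC1aOE 1 the difference of the mean was 0.49, and without G3 PGC1aOE 2 it was 0.12.

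In a wider list of 20 other endothelial genes, G3 PGC1aOE 2 and 3 again had the highest sums. For this list, and for the other lists above and below, values were taken without removing the length trend. The part of that trend in them was not tested. Of the 20, 19 had a positive log2 fold change and 1 a negative one, with a median of 0.54, and 0 passed (edgeR). Their sum was 679, 1309 and 945 CPM in G3 PGC1aOE 1 to 3, against 590, 778, 619 and 883 CPM in G3 1 to 4. Icam2, an adhesion molecule of endothelium, measured 11.9, 43.2 and 26.7 CPM in G3 PGC1aOE, against 10.03, 12.6, 12.7 and 17.7 CPM in G3 (log2 fold change 1.04, SE 0.37). Ramp2, a partner of the adrenomedullin receptor, measured 21.5, 96.5 and 57.2 CPM in G3 PGC1aOE, against 18.6, 38.3, 14.2 and 38.6 CPM in G3, with 1.09 and an SE of 0.50. Tspan18, a tetraspanin, had 0.62 with an SE of 0.24 (adjusted p = 0.847 in edgeR for all 3). It was the only gene of the 20 whose groups did not overlap, where 4.58% of all tested genes did not overlap.

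By vessel bed, 9 of 10 capillary genes had a positive log2 fold change (median 0.38), with Ly6c1, the gene of smallest p, at 0.55 and an SE of 0.31. All 10 arterial genes were positive (median 0.34), with Hey1, a Notch target, at 0.67 and the kinase gene Bmx at 1.16. Among 6 tested venous genes, 4 were positive (median 0.083), with the adhesion gene Selp at 0.60 and an SE of 0.62. Lists of the machinery around the 10 genes were mixed. Of 12 tested ligands, receptors and co-receptors of the VEGF, angiopoietin and apelin systems, 9 were positive (median 0.17), with Angpt2, a context-dependent ligand of TEK, at 4.58 ± 1.18 CPM in G3 PGC1aOE (SD, n = 3) and 2.53 ± 1.16 CPM in G3 (SD, n = 4). Of 10 Notch genes 9 were positive (median 0.18). Of 17 transcription factor genes of endothelium 12 were positive (median 0.30), with Lyl1 and Tal1, both basic helix-loop-helix factors, at 0.81 and 0.54. Of 15 junction and clotting genes 8 were positive (median 0.055). In edgeR 0 genes of any of these lists passed, as for the whole table, and several genes belong to more than one list.

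Markers of other cells also varied between the libraries. Cardiomyocyte genes had a median log2 fold change of −0.13, with 4 of 12 positive, and summed to between 64603 and 82117 CPM in G3 PGC1aOE and between 61603 and 84982 CPM in G3. Atp2a2 (SERCA2, which takes calcium back up after each beat) and Ryr2 (the channel that releases it) had −0.84 and −0.95, and were the 2 genes of the list with the smallest p. Other members went the opposite way, with Myl2 and Tnni3, genes of the contractile filaments, at 0.73 and 0.60 and Tnnt2 at 0.0051. The mean log2 CPM of the endothelial genes minus that of the cardiomyocyte genes was −5.39, −4.64 and −4.76 in G3 PGC1aOE 1 to 3, against −5.51, −5.11, −5.72 and −5.47 in G3 1 to 4. Fibroblast genes were positive in 11 of 12 (median 0.85), with sums from 1978 to 3333 CPM in G3 PGC1aOE and from 1434 to 2323 CPM in G3. Col3a1, a collagen gene of fibroblasts, had 1.28 (SE 0.24). It was the one gene of the whole table that DESeq2 called. Smooth muscle and pericyte genes were positive in 9 of 12 (median 0.44), and their sums were 793, 1317 and 1003 CPM in G3 PGC1aOE, against 624, 982, 1044 and 1008 CPM in G3. Macrophage genes were positive in 11 of 12 (median 0.31), with sums from 664 to 719 CPM in G3 PGC1aOE and from 341 to 778 CPM in G3. The adipocyte genes were positive in 7 of 8 tested (median 1.81), with sums from 49.5 to 88.2 CPM in G3 PGC1aOE and from 41.1 to 84.0 CPM in G3. None of these genes passed in edgeR, and their part in the endothelial values was not tested.

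**Figure D4:**
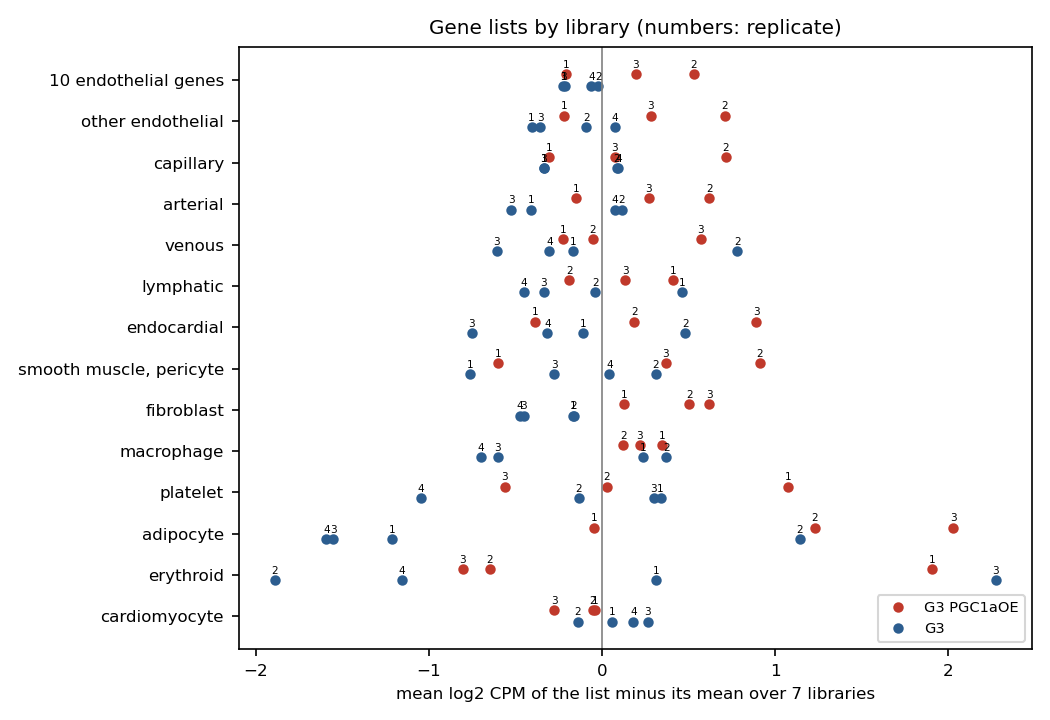
Mean log2 CPM of each gene list in each library, as the deviation from the list's mean over the 7 libraries, with G3 PGC1aOE in red above G3 in blue and replicates numbered. For the 10 endothelial genes, G3 PGC1aOE 2 and 3 lie right of every G3 library and G3 PGC1aOE 1 lies among them. The smooth muscle and pericyte list also has G3 PGC1aOE 2 farthest to the right and G3 PGC1aOE 1 near the left.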

How the data were processed

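Left ventricle RNA was sequenced as 7 TruSeq libraries, per the labels' protocols. The authors deposited 2 tables: whole-number read counts per Ensembl gene with no normalization, and FPKM. The submitters' processing notes name CASAVA, Bowtie 0.12.2 and mm9. Which program counted the reads, with which annotation and strand setting, is not given in the sources used here, so reads of overlapping genes cannot be told apart. A table of names matched 21748 of 22027 identifiers. The 279 unmatched held 0.0231% to 0.0295% of counts per library.

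The 10 genes and all gene lists were chosen with earlier results of these data known. After filterByExpr kept 12674 genes, TMM factors scaled the counts. The factors were 1.11, 0.923 and 0.847 in G3 PGC1aOE 1 to 3, against 1.09, 1.13, 0.995 and 0.943 in G3 1 to 4. The test was edgeR 4.0.16 (R 4.3.3), quasi-likelihood, robust, 2-sided, group as the only term, with Benjamini-Hochberg adjustment over all tested genes at 0.05. Fold changes are G3 PGC1aOE over G3, log2 CPM used a prior count of 2, and intervals are at 95%. Lists are described by counts and medians, with no test. Named genes are the 10, up to 4 of the other endothelial list and up to 2 of each further list by smallest p in the direction of the list's median, the 5 genes most like the mean of the 10 (mean log2 CPM of at least 2), and Ppargc1a. Adipoq, Ucp1, Lipe, Myl2, Tnni3 and Tnnt2 were named after their values were seen. Alternatives used RLE and upper quartile scaling, other filters, DESeq2 1.42.0, limma 3.58.1 (voom, and log2 FPKM with pseudocounts of 1 and 0.1), code covariates, a replicate block, removal of mitochondrially encoded genes or length trends, and each library left out. The 2 steps that use coding transcript length were chosen after seeing the data. The scripts were tested on simulated data.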

Additional observations from a re-analysis of the deposited data

How the results depend on the processing

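No endothelial gene passed under any alternative run. The lowest adjusted p of the 10 was 0.116 in edgeR, for Emcn without G3 PGC1aOE 1. In that run 2464 of 12922 tested genes had an unadjusted p under 0.05. With all 7 libraries edgeR called 0 genes of the whole table, with 548 at an unadjusted p under 0.05. DESeq2 called 1 (Col3a1) and the replicate block 6, none of the 10, and limma voom 0. The block rests on numbers that do not pair the samples: the correlation of deviations between libraries of the same number was 0.46, 0.12 and −0.086, and only G3 PGC1aOE 1 correlated best with its own number. The median of the 10 log2 fold changes was 0.26 with the block and lay between 0.11 (code number as covariate) and 0.37 (length trend removed) over all alternatives, and between 0.16 and 0.35 with each library left out. The difference of the mean log2 CPM ran from 0.12 to 0.49 with each library left out, was −0.052 within code numbers below 80 and was 0.014 within codes that hold G2. Kdr, Flt1, Cdh5, Tie1 and Pecam1 turned sign under some settings. Kdr had 0.028 with upper quartile scaling, 0.26 with the block, 0.00055 without mitochondrially encoded genes, 0.16 with the length trend removed and 0.15 with the coding length trend removed. Flt1 had 0.0016 and 0.097 under these 2 length settings. Cdh5 had −0.00044 and −0.00077 on log2 FPKM with pseudocounts of 1 and 0.1, and −0.15 with the code number as covariate, which also moved Tie1 to 0.074, Fabp4 to 0.20, Eng to 0.35, Emcn to 0.40 and Vwf to 0.72. With single libraries left out, Kdr ran from −0.21 to 0.17, Flt1 from −0.19 to 0.081, Cdh5 from −0.17 to 0.36, Tie1 from −0.017 to 0.78 and Pecam1 from −0.0084 to 0.32. The log2 FPKM scale with a pseudocount of 0.1 moved the median of all tested genes to −0.11. The biological coefficient of variation was 31.2%, with 3 and 4 libraries.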

Other observations

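The 2 vessel-related lists not described above were split among their members. Of 7 lymphatic genes, 4 had a positive log2 fold change (median 0.076): the chemokine gene Ccl21a measured 5.90, 18.9 and 13.3 CPM in G3 PGC1aOE 1 to 3, against 4.47, 1.77, 3.14 and 6.76 CPM in G3 1 to 4, or 1.65 ± 0.47 on the log2 scale (SE, edgeR, adjusted p = 0.847), while the mean of the list was highest in G3 1. Ccl21a has near-identical copies in the mouse genome, so its value is uncertain. Of 6 tested endocardial genes, 4 were positive (median 0.44), and Cytl1, a secreted cytokine-like protein, measured 2.25, 45.4 and 71.6 CPM in G3 PGC1aOE, against 5.38, 27.0, 4.13 and 6.01 CPM in G3 (log2 fold change 1.89, SE 1.07). Erythroid genes, which track blood left in the tissue, had 2 of 4 tested positive, with sums from 61.5 to 239 CPM in G3 PGC1aOE and from 23.7 to 344 CPM in G3.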
